A study of Mus musculus with 6 samples.

Results

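The germ cell apoptosis genes are 9 genes of the mitochondrial (intrinsic) cell death pathway: Bax, Bak1, Bcl2, Bcl2l1, Bcl2l2, Bcl2l11, Bbc3, Trp53 and Casp9. They were listed by name for their known roles, with earlier results of these data known, and all 9 were among the 53700 genes counted in each library. Total RNA was sequenced from whole testes of mice aged 45 days after birth, in single-end reads of 75 bp. The 6 libraries came from 3 mice with the genotype MSL3 WT (WT) and 3 with the genotype MSL3 cKO, described as floxed conditional knockouts (cKO). Both groups carry the strain label Msl3em1Forni/C57BL/6J, and each library is labelled as a separate biological replicate. The labels name no Cre driver and no deleted exon, so the cells in which the allele was to be removed are not known here. The name "germ cell" describes where these genes are known to act. The RNA came from the whole organ, somatic cells included.

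In the intrinsic pathway, stress signals such as DNA damage raise the activity of p53 (Trp53) or of the small BH3-only proteins Bim (Bcl2l11) and Puma (Bbc3). These bind and neutralise the survival proteins Bcl-2 (Bcl2), Bcl-xL (Bcl2l1) and Bcl-w (Bcl2l2), which otherwise restrain the pore-forming proteins Bax and Bak (Bak1). Pores in the outer mitochondrial membrane release cytochrome c, which activates caspase-9 (Casp9) on the Apaf1 scaffold. In the testis this pathway removes surplus and damaged germ cells. Male mice without Bax accumulate germ cells that fail to mature, and male mice without Bcl2l2 lose germ cells and are sterile.

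Trp53 and the p53 target genes Bax and Bbc3 tie these genes into a transcriptional circuit, and the letters of their promoters are shown for that reason. RefSeq windows on GRCm38.p6 (the mm10 assembly), each from 250 bases before to 50 bases after a start site, were found for 9 of the 9 genes, 14 windows in all. The windows of Bax (chr7:45466849-45467148, minus strand), Trp53 (chr11:69580109-69580408, plus strand) and 1 of the 3 of Bbc3 (chr7:16310181-16310480, plus strand) are printed 5′ to 3′. Capitals mark the p53 decamer, the unit that is repeated in p53 response elements, and the E-box CACGTG, both searched on both strands.
Bax: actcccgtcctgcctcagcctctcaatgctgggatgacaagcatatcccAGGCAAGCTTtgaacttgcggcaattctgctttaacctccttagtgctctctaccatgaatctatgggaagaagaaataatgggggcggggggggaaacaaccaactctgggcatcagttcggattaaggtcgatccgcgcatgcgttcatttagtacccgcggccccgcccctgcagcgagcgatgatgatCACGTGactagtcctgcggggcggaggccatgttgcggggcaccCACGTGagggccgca
Trp53: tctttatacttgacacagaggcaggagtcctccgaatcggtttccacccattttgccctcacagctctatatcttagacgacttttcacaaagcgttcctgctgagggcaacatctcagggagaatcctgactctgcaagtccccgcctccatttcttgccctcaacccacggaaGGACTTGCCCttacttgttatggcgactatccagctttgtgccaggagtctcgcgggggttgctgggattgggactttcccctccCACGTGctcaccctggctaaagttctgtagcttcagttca
Bbc3: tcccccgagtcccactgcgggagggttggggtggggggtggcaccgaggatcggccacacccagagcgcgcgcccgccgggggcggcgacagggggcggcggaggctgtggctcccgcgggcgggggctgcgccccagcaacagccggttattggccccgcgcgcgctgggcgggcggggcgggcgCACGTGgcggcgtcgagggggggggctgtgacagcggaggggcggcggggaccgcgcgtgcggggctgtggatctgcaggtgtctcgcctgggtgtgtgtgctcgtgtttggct
The decamer was found in 2 of the 14 windows, those of Bax and Trp53, and in 8.36% of all 32851 RefSeq windows of this length. CACGTG was found in 3 of the 14 windows, those shown, and in 7.15% of all. The Bax window holds it at 2 places, and the Bbc3 window was chosen for it, as the other 2 windows of Bbc3 hold neither motif. The GC box GGGCGG, searched on both strands, was found in 9 of the 14 windows and in 35.7% of all. These are matches of letters only. The windows reach no further than 250 bases upstream, so elements elsewhere in these genes were not searched.

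The libraries held 56991431 to 73766444 reads assigned to genes. Msl3, the targeted gene, had 942, 1226 and 990 reads in the WT libraries and 1170, 829 and 923 in the cKO libraries. Its fitted cKO level was 91.8% of WT, and edgeR did not call it (adjusted p = 0.551). The gene count covers all exons and gave no check of the deletion, so "cKO" below means the libraries so labelled. Markers of the tissue were present: summed CPM (the usual read count relative to the scaled library size) over 10 spermatocyte markers ran from 5826 to 6459 and over 10 elongating spermatid markers from 17806 to 22171. Sertoli, Leydig, peritubular myoid, macrophage and endothelial markers were also read, and 6 lymphocyte markers together reached 3.21 CPM at most. The 10 round spermatid markers summed to 1500 to 1659 CPM in WT and 1446 to 1488 in cKO, without overlap, with 9 of 10 below 0 on the log2 scale of cKO against WT. The sums of the 5 endothelial markers did not overlap either, at 39.8 to 40.9 CPM in WT and 41.9 to 50.9 in cKO. These ran in the other direction, with 5 of 5 markers above 0. Taken singly, the groups did not overlap for 3 of the 10 round spermatid markers, each lower in cKO. They did not overlap for 2 of the 5 endothelial markers, each higher. These shares were 30% and 40%, where all genes gave 18.9%. Of the lists whose sums overlapped, 9 of 10 Sertoli and 8 of 10 spermatogonial markers lay above 0 and 8 of 10 macrophage markers below. The elongating spermatid markers were split, 5 above 0 and 5 below, and the Leydig markers 4 above and 6 below. Of the 84 tested genes on 10 such marker lists, 0 passed an adjusted p of 0.05 by edgeR and 21 had an unadjusted p under 0.05 (25%, where all genes gave 13.9%). DESeq2 called 4 of the 79 for which it gave an adjusted p (5.06%, where all genes gave 1.39%), each lower. These were the elongating spermatid markers Tnp1 and Hmgb4, the round spermatid marker Spata25 and the Leydig marker Hsd17b3. Their part in the values below was not tested. In RNA of a whole organ, fewer cells of a type and less RNA per cell cannot be told apart.

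None of the 9 apoptosis genes passed edgeR's quasi-likelihood test between WT and cKO testes. The survival gene Bcl2l2 was the only one whose libraries did not overlap between the groups, higher in cKO, at 116% of WT. The BH3-only genes Bbc3 and Bcl2l11 had the lowest fitted cKO levels, 80.5% and 87.8% of WT. The pore formers Bax and Bak1 and the initiator caspase Casp9 had fitted levels between 97.7% and 103% of WT. Across all 21902 genes tested, 0.0183% passed an adjusted p of 0.05, and 0 of 9 is no departure from that background. At an unadjusted edgeR p under 0.05 there were 2 of the 9 (Bcl2l2 and Bcl2l11, 22.2%), against 13.9% of all genes. The groups did not overlap in 1 of 9 (11.1%), against 18.9% of all genes. DESeq2 likewise called 0 of the 7 for which it gave an adjusted p (1.39% of all genes with one), with 1 of 9, Bcl2l2, at an unadjusted p under 0.05. All 9 passed the filter on low counts, with 6 fitted changes above 0 and 3 below, and their median log2 fold change was 0.05 where that of all genes was 0.00311.

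**Figure D1:**
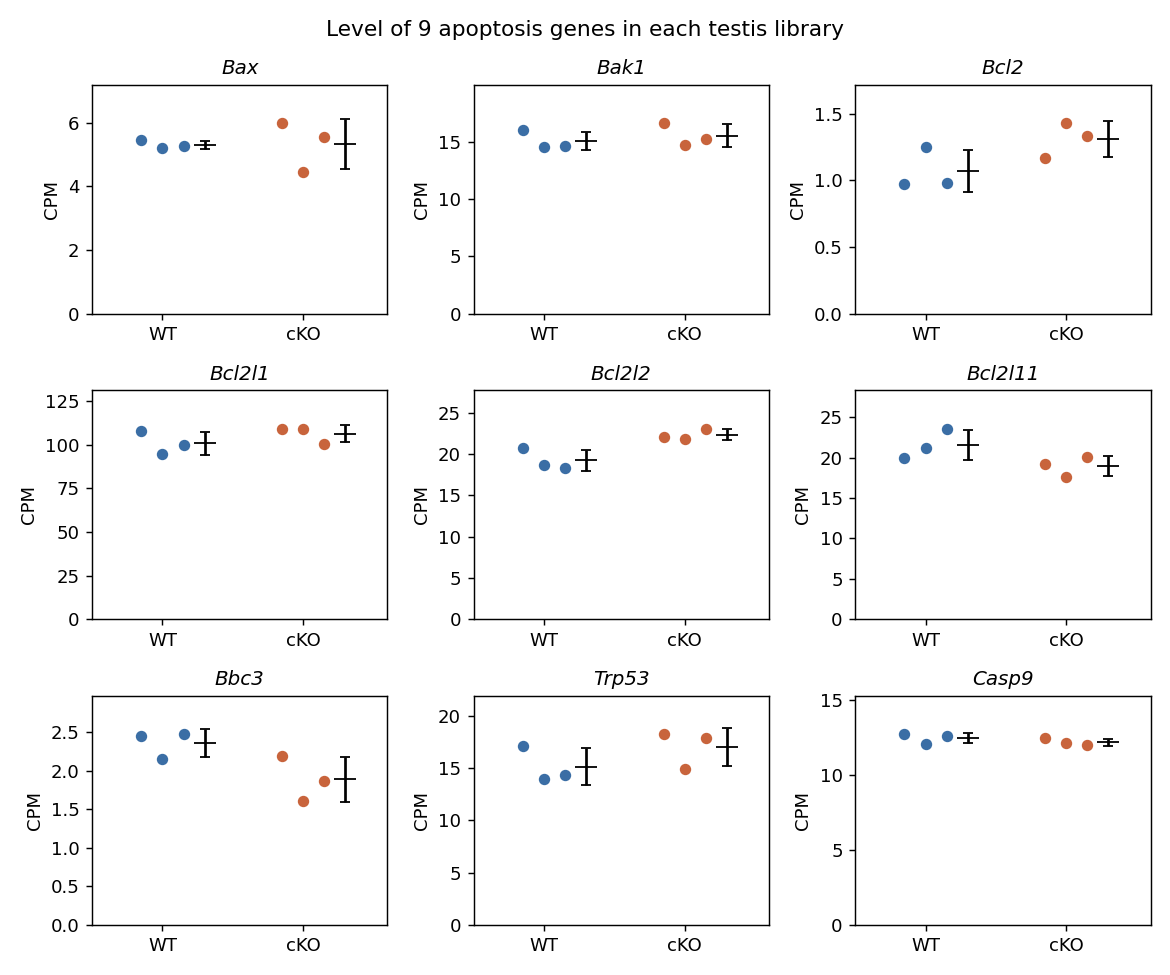
Level in CPM, read counts relative to scaled library size (vertical axis from 0), of each of the 9 genes, with 1 point per library, WT in blue and cKO in orange; the black bar and whiskers give the mean and SD of 3 libraries. The groups are apart for Bcl2l2 and share part of their range for the other 8 genes.

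Per length of exon, the highest of the 9 genes stood 174-fold above the lowest. CPM was divided by the kilobases of all annotated exons of a gene for this purpose, which lowers the value of genes with long untranslated ends. It also lowers Bax and Bcl2l2, which share 12.2% and 13.3% of their exon bases with another gene on the same strand. Reads in those stretches count for neither gene. Over the 6 libraries, Bcl2l1 stood highest at 22.6 ± 1.32 CPM per kb (SD, n = 6), and 13.2% of the tested genes with a length stood above it. Bak1 followed at 6.36 ± 0.352 CPM per kb (SD, n = 6), then Bcl2l2 at 4.66 ± 0.433 and Trp53 at 3.99 ± 0.472. The steps from Bcl2l1 to Bak1 and from Bak1 to Bcl2l2 were seen without overlap of any library. Bax stood at 3.37 ± 0.324 CPM per kb (SD, n = 6), Bcl2l11 at 2.53 ± 0.252 and Casp9 at 2.37 ± 0.0594. The libraries of each of the neighbouring pairs Bcl2l2 and Trp53, Trp53 and Bax, Bax and Bcl2l11, and Bcl2l11 and Casp9 overlapped. On this length, the order of the 3 former pairs within a library was nonetheless the same in 6 of 6 libraries. Bcl2l11 was above Casp9 in 4 of 6. Without the shared stretch Bax has 1384 exon bases in place of 1576, which would raise its value. The order of Bax and Trp53 on that shorter length was not computed. Bbc3 at 1.00 ± 0.159 CPM per kb (SD, n = 6) and Bcl2 at 0.130 ± 0.0204 stood apart at the low end, and 92.7% of the tested genes stood above Bcl2. Of the 3 survival genes, Bcl2l1 was thus the highest and Bcl2, after which the family is named, the lowest.

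**Figure D2:**
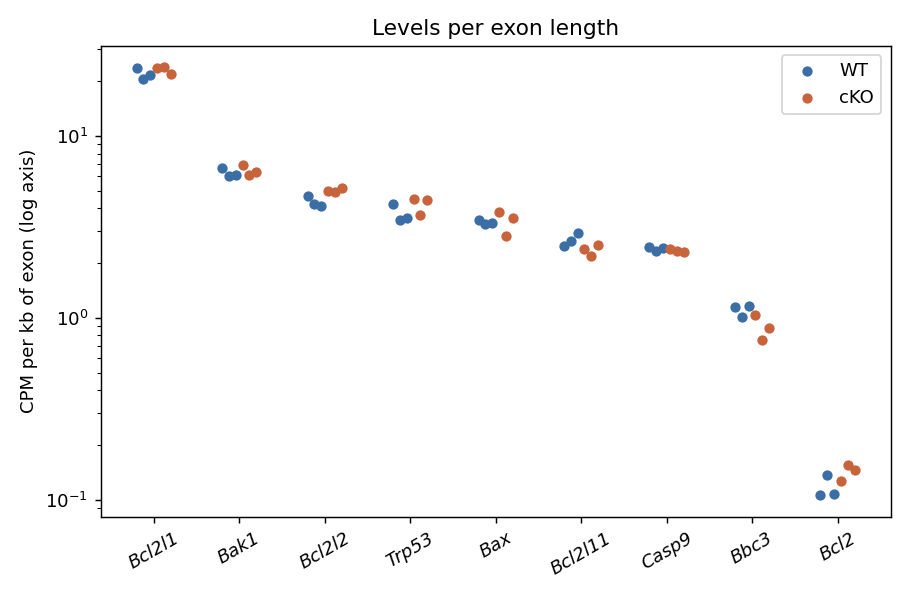
CPM per kilobase of annotated exon (log axis) of the 9 genes, ordered by their mean, with 1 point per library, WT in blue and cKO in orange. Bcl2l1 lies above every other gene in each library, at 20.7 to 23.8 CPM per kb, and Bcl2 below every other gene, at 0.106 to 0.156.

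The pore formers were followed first. Bax (ENSMUSG00000003873, chr7:45461697-45466898, minus strand of mm10) had 320, 337 and 327 reads in the WT libraries and 437, 249 and 325 in the cKO libraries. This is 5.44, 5.19 and 5.26 CPM in WT and 5.99, 4.45 and 5.56 CPM in cKO. The WT libraries lay close together, and the cKO libraries held both the highest and the lowest value of the 6. The mean was 5.30 ± 0.130 CPM in WT and 5.33 ± 0.795 CPM in cKO (SD, n = 3 each). The log2 fold change of Bax was 0.01 (SE 0.12) at adjusted p = 0.972 by edgeR, and the 95% limits of the cKO level were 84.1% and 121% of WT. For Bax, whose product forms pores once activated, the fit leaves differences inside those limits possible. The limits are per gene and are not a limit of detection under the adjusted test. The sign of the Bax difference turned with several settings, among them library totals alone.

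Bak1 (ENSMUSG00000057789, chr17:27019810-27029009, minus strand) encodes the other pore former. It had 941, 945 and 908 reads in WT and 1213, 825 and 890 in cKO, or 16.0, 14.6 and 14.6 CPM against 16.6, 14.7 and 15.2 CPM. The groups overlapped throughout, with a log2 fold change of 0.05 (SE 0.082), an edgeR adjusted p of 0.845 and 95% limits of 91.2% and 117% of WT. Part of the exons of Bak1 lies opposite exons of Ggnbp1, a gene read in the opposite direction, and unstranded counts of Bak1 came to only 63.9% to 69.6% of its stranded counts. The ratio of Bax to Bak1 in CPM per kb was 0.538 ± 0.0164 in WT and 0.523 ± 0.0538 in cKO (SD, n = 3 each), with overlap.

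The survival genes came next, and of these Bcl2l2 had the largest difference relative to its standard error. Bcl2l2 (ENSMUSG00000089682, chr14:54883377-54888234, plus strand) had 1219, 1217 and 1136 reads in WT and 1614, 1221 and 1350 in cKO. Its levels were 20.7, 18.8 and 18.3 CPM in WT and 22.1, 21.8 and 23.1 CPM in cKO. Each cKO library was above each WT library, the nearest being WT 1 and cKO 2. The means were 19.3 ± 1.31 CPM and 22.4 ± 0.677 CPM (SD, n = 3 each). The log2 fold change of Bcl2l2 was 0.22 (SE 0.077), with 95% limits of 103% and 130% of WT, an unadjusted edgeR p of 0.0163 and an adjusted p of 0.306 over all genes. It did not pass the threshold, nor did it under any alternative tried, where the adjusted p ran from 0.137 to 0.730. The unadjusted p was under 0.05 in 11 of 14 other fits, the exceptions being those without WT 2, without WT 3 and without cKO 3.

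Exons of Bcl2l2 are shared with Gm20521, an annotated gene on the same strand. The shared stretch is 594 of 4462 exon bases (13.3%), and reads within it count for neither gene. Gm20521 was listed at 0 reads in all 6 libraries. The value of Bcl2l2 thus rests on the other part of its exons. For Bax the like stretch, shared with Gm45808, is 192 of 1576 bases (12.2%), and Gm45808 was at 0 reads as well. These counts leave out reads in shared stretches, so they do not show whether Gm20521 or Gm45808 is transcribed.

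Bcl2l1 (ENSMUSG00000007659, chr2:152780668-152831728, minus strand), which encodes Bcl-xL and, by an alternative splice, the death-promoting Bcl-xS, was the most deeply counted of the 9. It had 6341, 6154 and 6197 reads in WT and 7959, 6119 and 5880 in cKO, or 108, 94.8 and 99.7 CPM against 109, 109 and 101 CPM. The groups overlapped, WT 1 being above cKO 3. Its log2 fold change was 0.08 (SE 0.072) at adjusted p = 0.662 by edgeR, with 95% limits of 94.7% and 118% of WT. A gene count does not separate the splice forms of Bcl2l1.

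Bcl2 (ENSMUSG00000057329, chr1:106538178-106714274, minus strand), the founding survival gene of the family, was the least counted. It had 57, 81 and 61 reads in WT and 85, 80 and 78 in cKO. The levels were 0.970, 1.25 and 0.981 CPM in WT and 1.17, 1.43 and 1.34 CPM in cKO, and the libraries overlapped because WT 2 was above cKO 1. Bcl2 had a log2 fold change of 0.29 (SE 0.17), an edgeR adjusted p of 0.480 and the widest 95% limits of the 9 genes, 93.8% and 159% of WT. It was also the gene of the 9 with the fewest reads.

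The BH3-only genes, whose products set off the pathway, both had fitted values below WT without passing the test. Bcl2l11 (ENSMUSG00000027381, chr2:128126038-128162547, plus strand), encoding Bim, had 1172, 1379 and 1467 reads in WT and 1398, 986 and 1173 in cKO. Its levels were 19.9, 21.3 and 23.6 CPM in WT and 19.2, 17.6 and 20.1 CPM in cKO. Only WT 1 and cKO 3 crossed over, by a small margin. The log2 fold change of Bcl2l11 was -0.19 (SE 0.086), with 95% limits of 77.1% and 99.99% of WT, an unadjusted edgeR p of 0.0499 and an adjusted p of 0.360. Its unadjusted p was under 0.05 in 9 of 14 other fits. DESeq2 gave an unadjusted p of 0.0564, and the adjusted p ran from 0.201 to 0.784 over those fits.

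Bbc3 (ENSMUSG00000002083, chr7:16308393-16318205, plus strand), encoding the p53 target Puma, had 144, 140 and 154 reads in WT and 160, 90 and 109 in cKO. In CPM this was 2.45, 2.16 and 2.48 in WT and 2.19, 1.61 and 1.87 in cKO. The cKO 1 library lay just above WT 2, and the other cKO libraries lay below all of WT. Bbc3 had a log2 fold change of -0.31 (SE 0.15), an edgeR adjusted p of 0.377 and 95% limits of 64.1% and 101% of WT. Without cKO 1 its log2 fold change was -0.44 and without cKO 2 it was -0.21, with adjusted p of 0.189 and 0.670; over 13 alternative fits with an adjusted p it ran from 0.189 to 0.745.

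**Figure D3:**
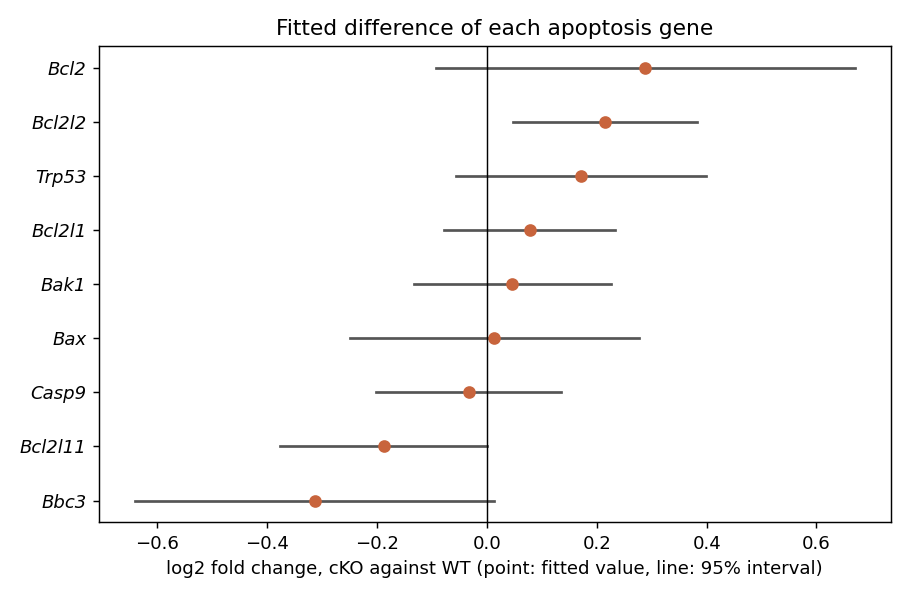
Fitted log2 fold change of cKO against WT (horizontal axis) for each of the 9 genes, as a point with its 95% interval, not adjusted for the number of genes. The interval of Bcl2l2 lies above 0, that of Bcl2l11 ends at 99.99% of WT, just below 0 on this axis, and those of the other 7 genes cross it; the adjusted p of the 9 runs from 0.306 to 0.972.

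Upstream of these, Trp53 (ENSMUSG00000059552, chr11:69580359-69591873, plus strand) encodes p53, which is controlled mainly through the stability of its protein. It had 1010, 907 and 893 reads in WT and 1335, 837 and 1048 in cKO. The levels of Trp53 were 17.2, 14.0 and 14.4 CPM in WT and 18.3, 14.96 and 17.9 CPM in cKO, each group holding high and low libraries. The log2 fold change was 0.17 (SE 0.10) at adjusted p = 0.481 by edgeR, with 95% limits of 96.2% and 132% of WT. Without WT 1 it was 0.27 and without WT 2 it was 0.11, neither past the threshold.

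Downstream, Casp9 (ENSMUSG00000028914, chr4:141793612-141815976, plus strand) was the steadiest of the 9 genes. It had 749, 784 and 785 reads in WT and 908, 678 and 702 in cKO, or 12.7, 12.1 and 12.6 CPM against 12.4, 12.1 and 12.02 CPM. All 6 libraries lay within 1 CPM of each other, and the coefficient of variation of Casp9 was 2.83% in WT and 1.83% in cKO. With a log2 fold change of -0.03 (SE 0.077) and edgeR's adjusted p 0.885, its cKO level had 95% limits of 86.9% and 110% of WT. The most variable of the 9 in cKO was Bbc3, at 15.5%, followed by Bax at 14.9%, whereas Bax varied by 2.45% in the WT libraries.

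Death-promoting and survival genes were also set against each other as ratios within a library, which do not depend on library scaling. They are ratios of RNA over the whole organ and do not show the balance of the proteins within any cell. The exon lengths of Bax and Bcl2l2 include stretches shared with other genes, which lowers the level of each in these ratios in both groups alike. The ratio of Bax to Bcl2 in CPM per kb was 32.6, 24.2 and 31.1 in WT and 29.9, 18.1 and 24.2 in cKO, with overlap. Bax was a small part of Bcl2l1 in every library, at 0.147 to 0.159 times its level in WT and 0.118 to 0.161 times in cKO. Against Bcl2l2 the ratios of the BH3-only genes did not overlap: that of Bcl2l11 was 0.627 ± 0.0917 in WT and 0.471 ± 0.0193 in cKO, and that of Bbc3 was 0.258 ± 0.0232 and 0.178 ± 0.0276 (SD, n = 3 each). The ratio of Bcl2l1 to Bcl2l2 also did not overlap, at 5.10 ± 0.196 and 4.64 ± 0.348 (SD, n = 3 each). These 3 ratios share Bcl2l2 as their denominator, and the fourth ratio over Bcl2l2, that of Bax, overlapped, at 0.743 to 0.815 in WT and 0.577 to 0.767 in cKO. Bcl2l2 was also the only one of the 9 genes whose own levels did not overlap between the groups. Bcl2l11 and Bbc3 were not set against Bcl2l1 or Bcl2. The share of other gene pairs whose ratios do not overlap was not computed, so these ratios show no shift of balance. The 9 pairs computed were picked with the counts in view, so no test is given.

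The rest of the pathway was read from lists of other genes, and 0 of the 60 genes tested on the 5 lists passed an adjusted p of 0.05 by edgeR (0.0183% of all genes), with 7 (11.7%) at an unadjusted p under 0.05 (13.9% of all genes). DESeq2 called 0 of the 48 for which it gave an adjusted p. Of these lists, that of the p53 network leaned towards higher values in cKO. Those of the other BH3-only genes and of the apoptosome and execution genes leaned towards lower ones. Summed CPM of the BH3-only list ran from 151 to 155 in WT and 132 to 148 in cKO. That of the apoptosome and execution list ran from 353 to 368 in WT and 338 to 349 in cKO. Neither overlapped between the groups, while the sums of the remaining lists did. Of all genes, 50.7% lay above 0 and 49.3% below, and the counts of the lists are given as descriptions, with no test of a list. With library totals alone in place of scaled libraries, the median of all genes was -0.02, and the list medians kept their signs.

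Among the other BCL2 relatives with several BH domains, 4 of 9 were tested, and their median log2 fold change was -0.05. Mcl1, a short-lived survival protein, stood at 104 ± 1.19 CPM in WT and 98.5 ± 3.72 CPM in cKO (SD, n = 3 each), at adjusted p = 0.645 by edgeR. Bcl2l14, encoding Bcl-G, stood at 421 CPM in WT and 406 CPM in cKO, with a log2 fold change of -0.05 and an adjusted p of 0.763. Per length of exon Bcl2l14 had 101 CPM per kb, above each of the 9 apoptosis genes. Bcl2l13 had a log2 fold change of 0.05 and an adjusted p of 0.785. The 5 not tested were Bcl2l10, Bcl2l15 and the near-identical copies Bcl2a1a, Bcl2a1b and Bcl2a1d, all with too few reads.

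Of the other BH3-only genes, 8 of 9 were tested, 7 with values below 0 and 1 above, and the median log2 fold change was -0.12. The groups did not overlap for 3 of the 8, against 18.9% of all genes. Bad, which growth factor signalling holds inactive, had 49.0, 52.3 and 51.0 CPM in WT and 48.4, 41.8 and 44.9 CPM in cKO, a log2 fold change of -0.17 (SE 0.073) and adjusted p = 0.333 by edgeR. Pmaip1, encoding the p53 target Noxa, ran the other way, at 4.185, 3.47 and 3.23 CPM in WT and 4.194, 4.20 and 5.29 CPM in cKO, so that WT 1 and cKO 1 all but touched. Its log2 fold change was 0.33 (SE 0.14) and adjusted p = 0.329 by edgeR. Bmf had -0.25 (SE 0.13), with an adjusted p of 0.422. The p53 targets Bbc3 and Pmaip1 thus had fitted values on opposite sides of 0, neither past the test.

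All 17 genes of the apoptosome and execution list were tested, with 5 values above 0 and 12 below and a median log2 fold change of -0.05. Cyct, the testis form of cytochrome c, had 51.7, 66.3 and 60.3 CPM in WT and 46.9, 53.4 and 51.9 CPM in cKO, a log2 fold change of -0.23 (SE 0.092) and edgeR's adjusted p 0.315. Apaf1, the scaffold on which caspase-9 is activated, had 6.40, 5.96 and 6.42 CPM in WT and 7.07, 7.24 and 6.61 CPM in cKO, without overlap, at a log2 fold change of 0.16 (SE 0.094) and an adjusted p of 0.480. Dffb, the nuclease that cuts chromatin in dying cells, had -0.24 (SE 0.13) and an adjusted p of 0.451, also without overlap. The groups did not overlap for 4 of the 17 genes (23.5%), near the 18.9% of all genes.

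The 9 genes of the death receptor arm, the route to apoptosis from the cell surface, had a median log2 fold change of -0.00683. The groups did not overlap for 0 of the 9, against 18.9% of all genes. Cflar, an inhibitor of caspase-8 activation, had the lowest unadjusted p, with a log2 fold change of 0.19 (SE 0.099) and edgeR's adjusted p 0.408. Fas and its ligand Fasl were both rare, at 0.608 and 0.571 CPM in WT and 0.481 and 0.499 CPM in cKO. Fas had an adjusted p of 0.565, and Ripk1, a kinase recruited to these receptors, one of 0.593.

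In the p53 network, 17 of 23 tested genes lay above 0 and 6 below, with a median log2 fold change of 0.10. The groups did not overlap in 7 of them, 6 higher and 1 lower, against 18.9% of all genes either way. Ppp1r13l, encoding the p53 inhibitor iASPP, had 76.7, 71.7 and 68.7 CPM in WT and 81.9, 89.3 and 82.9 CPM in cKO, a log2 fold change of 0.23 (SE 0.070) and adjusted p = 0.288 by edgeR. The p53 relatives Trp73 and Trp63 had log2 fold changes of 1.15 (SE 0.38) and 0.32 (SE 0.14), with adjusted p of 0.297 and 0.335. Trp73 was read at only 5 to 10 reads in each WT library and 13 to 17 in each cKO library, which limits its value. Of the best-known p53 targets, Cdkn1a and Mdm2 had log2 fold changes of 0.04 and 0.03, with adjusted p of 0.940 and 0.895, and Ccng1 had -0.21 with 0.367. Zmat3, Sesn1 and Aen lay at 0.10, 0.06 and 0.18, with adjusted p from 0.480 to 0.756. Eda2r, Trp53inp1, Perp and Tnfrsf10b of the same list lay below 0, at -0.42, -0.11, -0.11 and -0.09, with edgeR adjusted p from 0.501 to 0.857.

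**Figure D4:**
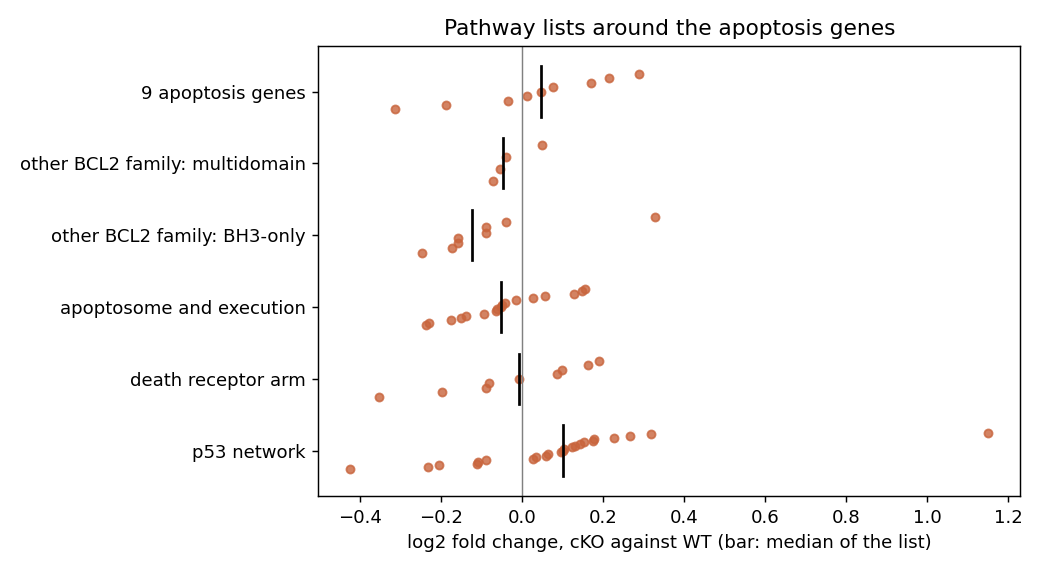
Fitted log2 fold change of cKO against WT (horizontal axis) of each tested gene of 6 lists, with a black bar at the median of each list. The medians lie between -0.12 (other BH3-only genes) and 0.10 (p53 network), and the point at 1.15 is Trp73.

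Genes outside the pathway whose levels ran most like those of Bax and Bcl2l2 across the 6 libraries were sought among the 12189 genes that averaged 5 CPM or more. By Pearson correlation of log2 CPM, those nearest to Bax were Pgbd5, Dynlrb1 and Hccs (r from 0.988 to 0.992), and those nearest to Bcl2l2 were Zfp46, 6430548M08Rik and Sos2 (r from 0.988 to 0.995). With 6 libraries and this many genes such values are easily met: 38 genes had r above 0.95 with Bax and 101 with Bcl2l2.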

How the data were processed

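The authors deposited 1 table of read counts per gene for each of the 6 libraries, raw and not normalised, in the layout of STAR. STAR, HTSeq, DESeq2 and the build mm10 are named, with no role or version, in the submitters' processing notes. The annotation release, library kit and read filters are not given in the sources used here. That layout counts uniquely mapped reads in an unstranded column and in 2 strand columns. The opposite-strand column held 96.0% to 96.2% of the reads of the strand columns and was used. The 4 summary lines of a table (unmapped, multimapping, outside genes, ambiguous; 14.8% to 16.7% of reads) were left out.

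Here, edgeR 4.0.16 in R 4.3.3 was run with filterByExpr (minimum count 10), TMM scaling and no covariates; cKO was compared with WT by the two-sided quasi-likelihood test, with Benjamini-Hochberg adjustment over 21902 genes at 0.05. CPM uses TMM-scaled library sizes, standard errors come from the F statistic, and 95% limits are per gene. DESeq2 1.42.0 was an alternative. The procedure was tested on simulated data. Symbols, exons and positions came from GENCODE M21, on the same build, which matched 52093 of the 53700 identifiers. Promoter windows came from RefSeq (GRCm38.p6). No batch is labelled.

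The 9 genes were named always, and from each other pathway list up to 3 genes with the lowest unadjusted p, plus any past the threshold. Cell type marker lists are otherwise given by counts and sums. Further genes (Mdm2, Cdkn1a, Ccng1, Zmat3, Sesn1, Aen, Eda2r, Trp53inp1, Perp, Tnfrsf10b, Fasl and the 4 marker genes called by DESeq2) were named after their values were seen. The members and lists were chosen with earlier results of these data known. Alternatives were other scalings and filters, unstranded counts, a replicate block, robust fitting, each library left out, and an adjusted p of 0.1. For 75-base stretches of transcripts, the share found in another gene was counted on either strand. Matches on the same strand made up 11.5% for Bcl2l2, 6.84% for Bax and 1.09% for Trp53 (in its pseudogene Trp53-ps). Matches on the opposite strand made up 12.8% for Bak1, 4.67% for Bcl2 and 0.383% for Casp9. The share was 0% for Bcl2l1, Bcl2l11 and Bbc3.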

Additional observations from a re-analysis of the deposited data

How the results depend on the processing

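Under every alternative tried, 0 of the 9 apoptosis genes passed the threshold, with 14 other fits and an adjusted p limit of 0.1. The number of all genes past it, 4 as reported, was 757 without a filter on low counts, 2 with unstranded counts and 193 with DESeq2, and 1 to 628 when a library was left out (628 without cKO 1, 116 without WT 1, 7 without cKO 3, 2 without WT 2, 1 without WT 3 or cKO 2). The cause was not tested. With a replicate block it was 49. Same-numbered libraries deviated together with r of 0.38, 0.26 and -0.07, where differently numbered libraries gave r from -0.39 to 0.16. No pairing is labelled, so whether the numbers mark pairs is not known. They were not treated as pairs in the main fit, and the block changed no call of the 9 genes. Bax turned to -0.014 on the log2 scale with library totals alone, and ran from -0.081 to 0.13 with a library left out. Bak1 ran there from -0.0069 to 0.093. The other 7 kept their sign in all 14 fits. Bcl2 and Bbc3 had at most 160 reads a library and the widest 95% limits of the 9; the part of depth in that was not tested.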

Other observations

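Reads on the strand opposite to the gene's transcript gave a value outside these comparisons. Bcl2l11 had 50 to 75 such reads in each library, 3.92% to 6.63% of its reads in the strand columns, the highest share of the 9 genes. Over all genes that share was 3.84% to 4.01%, near the low end of its range. Bak1, which overlaps Ggnbp1, had 1.87% to 3.51%, and Casp9 had 1.32% to 1.88%. The other 6 genes stayed at or under 1.23%. The antisense gene annotated across Bcl2, D630008O14Rik, was listed at 0 reads in all 6 libraries.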
